A study of Homo sapiens with 6 samples.

Results

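Histone lysine methyltransferases and demethylases, the enzymes that add methyl groups to histone lysines and take them off, were followed in HCT116 cells after PLOD3 siRNA. The members were the rows of the deposited table named KDM, KMT or SETD followed by a digit, NSD1 to NSD3, EZH1, EZH2, EHMT1, EHMT2, SUV39H1, SUV39H2 and DOT1L. Only rows with a protein-coding transcript counted, and KDM5D was left out by the rule. This gave 46 of the 60612 genes in the table. HCT116 is an established epithelial line derived from a colorectal carcinoma, a disease in whose progression the series studies PLOD3, a collagen lysyl hydroxylase. For 2 days, 3 samples received PLOD3 siRNA (genotype si RNA in the labels) and 3 received si NC (genotype NC), and the cells of both groups were kept in DMEM with 10% fetal bovine serum. RNA was sequenced after removal of ribosomal RNA. The labels do not say how many siRNA sequences were used against PLOD3, nor whether samples of a group come from different cultures, so each p-value reflects the spread of these samples, which may be technical.

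The estimated counts summed to between 55416555 and 76802428 per sample. PLOD3, the targeted gene, was at 6.40, 7.16 and 6.22 with si NC against 3.44, 3.40 and 4.05 with PLOD3 siRNA (FPKM, a level per transcript length and library depth). Its mean stood at 55.1% of the control mean before any correction. All 6 epithelial markers were above a mean FPKM of 1, and their summed FPKM was 695 to 741 in si NC and 573 to 651 in PLOD3 siRNA. The 7 fibroblast markers summed to 2.64 to 2.76 in si NC and 1.48 to 1.91 in PLOD3 siRNA, with 2 without any count, the 6 leukocyte markers to 0.902 to 1.69 in si NC and 1.68 to 1.74 in PLOD3 siRNA, with 2 without any count, and the 5 endothelial markers to 0.0941 to 0.230 in si NC and 0.0908 to 0.119 in PLOD3 siRNA, with 1 without any count. The part of these shifts in the results below was not tested. In a bulk sample fewer cells of a type and less RNA per cell cannot be told apart.

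Histones H3 and H4 carry lysines that can hold up to several methyl groups, and the meaning depends on the position. Methylation of H3 lysine 4 (H3K4) marks promoters and enhancers, that of H3K36 and H3K79 marks transcribed gene bodies, and that of H3K9, H3K27 and H4K20 is found in silenced or compacted chromatin. Most methyltransferases use a SET domain and S-adenosylmethionine, with DOT1L as the exception without a SET domain. KDM1A and KDM1B are flavin-dependent demethylases, and the other KDM enzymes have a Jumonji (JmjC) domain that needs iron, oxygen and 2-oxoglutarate, the same cofactors that lysyl hydroxylases such as PLOD3 use. Colorectal tumours often carry altered levels or mutations of such enzymes.

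Of the 46 genes, 43 reached a mean FPKM of at least 1 over the 6 samples and were tested. In PLOD3 siRNA 10 of them were lower and 3 higher (edgeR's quasi-likelihood test, Benjamini-Hochberg adjusted over 12000 genes, threshold 0.05). These are 23.3% and 6.98% of the tested members, and over all genes tested 19.3% were lower and 16.2% higher. The lower share was thus near that of all genes and the higher share under it. The median log2 fold change of the 43 genes was -0.12, against 0.0034 over all genes. Without si NC replicate 3 the count of lower members was 6, and the count of higher members was 1 without si NC replicate 2, without si NC replicate 3 or without PLOD3 siRNA replicate 1. Counts over all genes in these fits are not given here. With FPKM rescaled to 1 common sum per sample (TPM), where the median of all genes was 0.0952, limma called 5 lower and 3 higher. The share of higher genes among the calls was 37.5% of members, against 23.1% with edgeR, and over all genes it was 62.8% against 45.6%.

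The lower calls lay mostly among demethylases. Of 16 tested demethylases 7 fell (KDM6B, KDM5B, KDM5C, KDM3B, KDM4A, KDM2B and KDM2A) and 2 rose (KDM3A and KDM6A), with a median log2 fold change of -0.21. Of 27 tested methyltransferases 3 fell (SETD1A, KMT5C and EHMT1) and EZH2 rose, with a median of 0.0030. The difference between the 2 classes was not tested. FPKM ranges of the groups did not overlap in 13 members that were lower and 6 that were higher, or 19 of 43, where over all genes 27.5% were lower and 24.6% higher without overlap. The plot of fold changes by role shows all 43 genes.

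**Figure D1:**
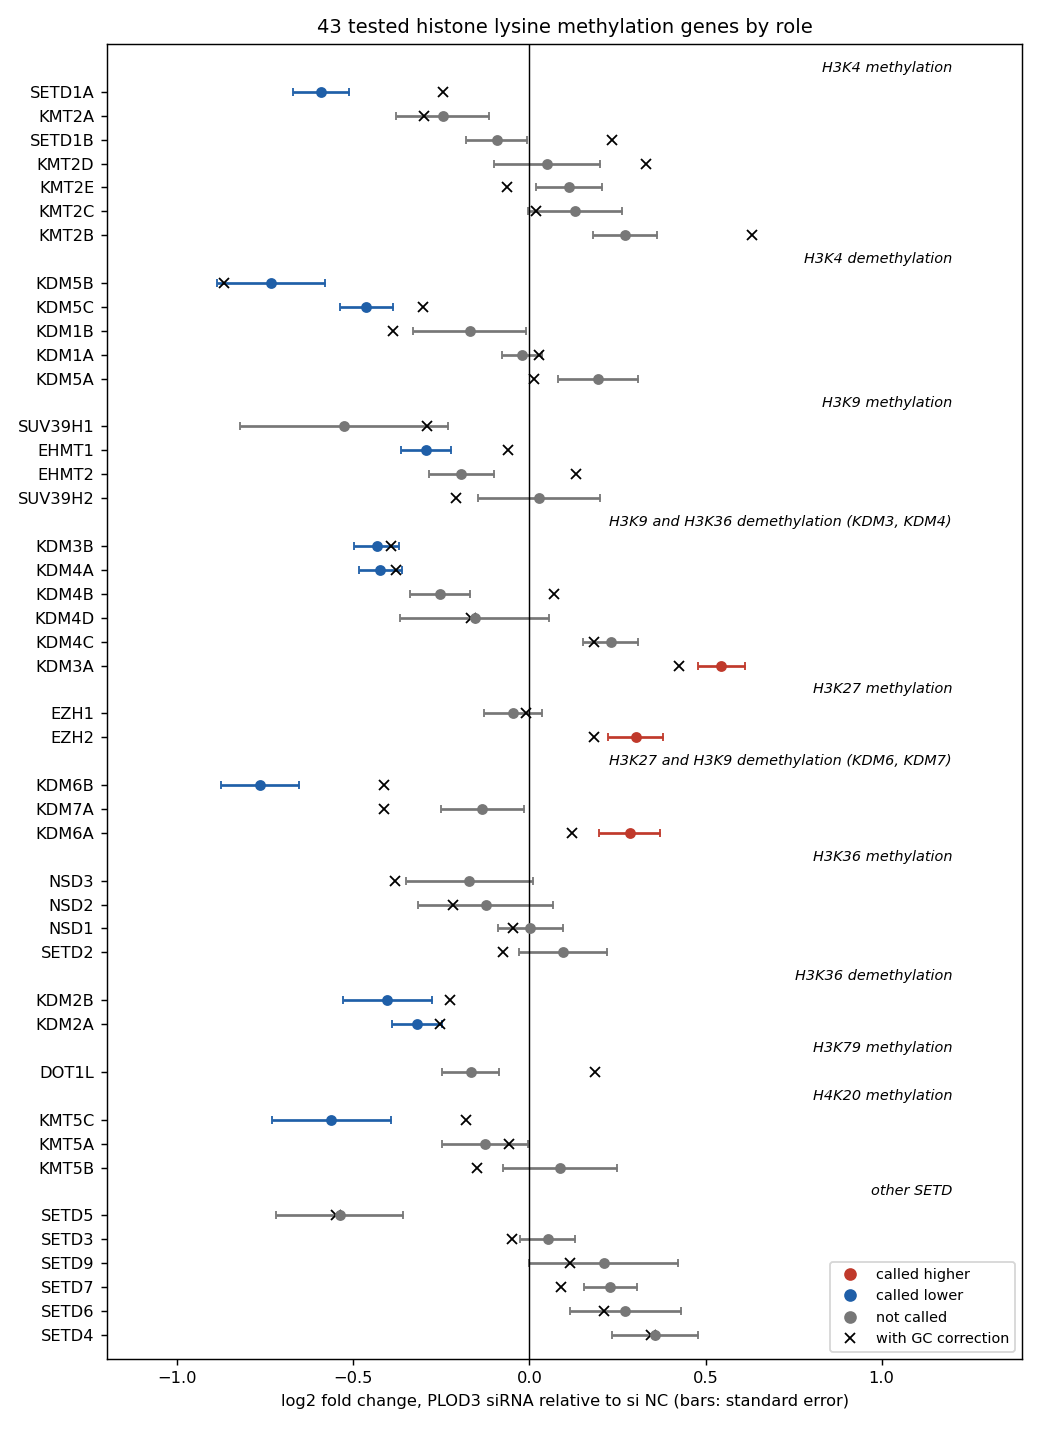
Log2 fold change of PLOD3 siRNA relative to si NC for the 43 tested genes, grouped by the histone position they act on; circles are edgeR estimates with their standard error from 3 against 3 samples, coloured by call, and crosses are the estimates after correction for GC content. Among the circles KDM3A stands highest at 0.54 and KDM6B lowest at -0.77. For GC-rich genes such as KMT2B, SETD1B and DOT1L the cross lies to the right of the circle.

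Because fold changes over the whole table moved with the GC content of the transcript, each call is given with its outcome after a correction for that trend. The correction left 8 members lower and 2 higher, against 14.3% and 13.0% of all genes. KDM6B, KDM5B, SETD1A, KDM5C, KDM3B, KDM4A and KDM2A kept their lower call and KDM3A its higher call, while EHMT1, KDM2B, KMT5C, EZH2 and KDM6A lost theirs. KDM7A joined the lower calls and KMT2B the higher ones. PLOD3, at 61.7% GC, kept its lower call at a smaller size. Its log2 fold change was -0.85 before the correction and -0.52 after it (edgeR adjusted p = 0.00350 and 0.00733).

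Among demethylases of H3K9, the paralogs KDM3A and KDM3B moved in opposite directions. KDM3A (ENSG00000115548, chromosome 2, 86440647 to 86492716, plus strand, GRCh38) encodes a demethylase of mono- and dimethylated H3K9 and is a known target of hypoxia-inducible factors. It was measured at 3.66, 3.34 and 3.46 with si NC against 5.38, 4.87 and 4.95 with PLOD3 siRNA. All PLOD3 siRNA samples were above all si NC samples, and the mean rose from 3.49 ± 0.165 to 5.07 ± 0.272 (SD, n = 3 each; log2 0.54, SE 0.0663, edgeR adjusted p = 0.00329). It was the largest rise among the 43 members before any correction and kept its call after the GC correction (log2 0.43, adjusted p = 0.00491) and in 6 of 6 fits that left out a sample.

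KDM3B (ENSG00000120733, chromosome 5, 138352685 to 138437028, plus strand) acts on the same mark and was the more abundant of the pair. It was measured at 16.4, 15.7 and 16.7 with si NC against 11.7, 11.6 and 12.7 with PLOD3 siRNA. Every PLOD3 siRNA sample lay below every si NC sample, and the mean fell to 73.8% of the control (log2 -0.43, SE 0.0631, n = 3 each, edgeR adjusted p = 0.00491). The value after the GC correction was -0.39 (adjusted p = 0.00673).

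The 250 bases upstream of a RefSeq start of each gene (GRCh38.p14, chr2:86441121-86441370 and chr5:138352435-138352684, both plus strand) are shown because these are the 2 paralogs that were called in opposite directions under each alternative in which both were tested. With a filter at 5 FPKM, KDM3A was not tested. Capitals mark the core of the hypoxia response element (ACGTG or GCGTG) and the CCAAT box, each on either strand.
KDM3A: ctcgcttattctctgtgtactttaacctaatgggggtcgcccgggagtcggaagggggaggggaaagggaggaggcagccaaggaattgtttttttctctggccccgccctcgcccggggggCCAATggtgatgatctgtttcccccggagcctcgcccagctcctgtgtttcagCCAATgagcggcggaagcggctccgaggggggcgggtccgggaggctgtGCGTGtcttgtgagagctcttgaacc
KDM3B: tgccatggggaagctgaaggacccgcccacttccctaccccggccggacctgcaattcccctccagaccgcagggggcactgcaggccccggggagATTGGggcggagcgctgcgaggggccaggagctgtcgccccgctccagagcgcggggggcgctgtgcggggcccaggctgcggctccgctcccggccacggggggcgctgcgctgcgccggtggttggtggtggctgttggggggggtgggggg
RefSeq lists 2 starts for KDM3A and the first is shown. The KDM3A window lies inside the gene as placed in the deposited table, downstream of its start at 86440647. The KDM3B window ends just before its gene start at 138352685, so the windows are not placed alike. The KDM3A window held 1 hypoxia core (GCGTG), which 43.2% of 35116 such windows in the table hold in one of the forms. It also held 2 CCAAT boxes, where 32.0% of windows hold at least 1. The KDM3B window held 0 hypoxia cores and 1 CCAAT box, read as ATTGG on the printed strand. Neither held the E2F sequences TTTGGCGC or TTTCCCGC, which 1.93% of windows hold in one of the forms. GC made up 62.4% of the KDM3A window and 76.4% of that of KDM3B.

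In the KDM4 family, whose enzymes remove methyl groups from trimethylated H3K9 and, in some members, H3K36, KDM4A fell and its relatives did not pass. KDM4A (ENSG00000066135, chromosome 1, 43650149 to 43705518, plus strand) had an FPKM of 14.8, 14.9 and 14.8 with si NC against 11.4, 10.4 and 11.3 with PLOD3 siRNA. The si NC samples lay close together, all PLOD3 siRNA samples were lower, and the mean stood at 74.4% of the control (log2 -0.42, SE 0.0612, n = 3 each, edgeR adjusted p = 0.00486, 0.00565 after the GC correction). AL451062.3, which overlaps KDM4A on the same strand, was listed without reads. KDM4C was at 1.80, 1.66 and 1.83 with si NC against 2.12, 1.96 and 2.11 with PLOD3 siRNA. Its groups did not overlap and it was higher in PLOD3 siRNA, but the difference of 0.23 missed the threshold (edgeR adjusted p = 0.0580). KDM4B was at 1.83, 1.78 and 1.82 with si NC against 1.46, 1.41 and 1.68 with PLOD3 siRNA, lower in each PLOD3 siRNA sample, with a log2 difference of -0.25 short of the threshold (edgeR adjusted p = 0.0587). After the GC correction it stood at 0.069. KDM4D had a mean of 1.15 FPKM, and its groups overlapped (log2 -0.16, edgeR adjusted p = 0.598). KDM4E and KDM4F were listed without reads in all 6 samples and were not tested.

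For H3K4, both lower calls among the demethylases were in the KDM5 family, which removes methyl groups from di- and trimethylated H3K4. KDM5B (ENSG00000117139, chromosome 1, 202724495 to 202808481, minus strand) had an FPKM of 1.65, 1.30 and 1.94 with si NC against 1.05, 0.844 and 1.03 with PLOD3 siRNA. The PLOD3 siRNA samples were all lower, the si NC samples were spread more widely, and the mean fell from 1.63 ± 0.319 to 0.975 ± 0.114 (log2 -0.73, SE 0.153, n = 3 each, edgeR adjusted p = 0.0135). The PLOD3 siRNA mean was under the filter of 1, so KDM5B was tested only through its si NC level. KDM5B has a GC content of 44.4%, the lowest of the 10 lower members, and after the GC correction its difference was larger, at -0.87 (adjusted p = 0.00959). KDM5C (ENSG00000126012, chromosome X, 53191321 to 53225422, minus strand), encoded on the X chromosome, was at 9.69, 9.96 and 9.55 with si NC against 7.32, 6.29 and 7.53 with PLOD3 siRNA. Its groups did not overlap and the mean fell to 72.4% of the control (log2 -0.46, SE 0.0753, n = 3 each, edgeR adjusted p = 0.00649, log2 -0.30 and adjusted p = 0.0185 after the GC correction).

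KDM5A, the remaining tested member of that family, was not called. It was measured at 3.24, 2.72 and 3.15 with si NC against 3.95, 2.93 and 3.53 with PLOD3 siRNA, with overlapping groups and a log2 difference of 0.20 short of the threshold (edgeR adjusted p = 0.220). KDM5A overlaps CCDC77 on the other strand by 182 exonic bases. KDM1A (LSD1), the flavin-dependent demethylase of the CoREST complex, was the most abundant member, with an FPKM of 41.7, 41.8 and 41.1 with si NC against 41.8, 38.6 and 42.1 with PLOD3 siRNA. Its log2 difference was -0.021 (edgeR adjusted p = 0.803), with a 95% interval of -0.16 to 0.12. KDM1B (LSD2) was at 3.77 ± 0.795 and 3.35 ± 0.458 FPKM in the control and siRNA groups (SD, n = 3 each, log2 -0.17, edgeR adjusted p = 0.444).

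Among methyltransferases of H3K4, SETD1A was the only one called. SETD1A (ENSG00000099381, chromosome 16, 30957754 to 30984664, plus strand) is the catalytic subunit of a COMPASS complex that trimethylates H3K4 at promoters. It had an FPKM of 11.2, 11.4 and 11.3 with si NC against 7.40, 6.77 and 8.30 with PLOD3 siRNA. The si NC samples lay close together, every PLOD3 siRNA sample was lower, and the mean fell to 66.3% of the control (log2 -0.59, SE 0.0792, n = 3 each, edgeR adjusted p = 0.00405). SETD1A is GC-rich at 62.3%, and the difference shrank to -0.25 after the GC correction (adjusted p = 0.0444) and to -0.10, below the threshold, after correction for GC and length (adjusted p = 0.203). Its paralog SETD1B was at 3.36, 3.42 and 3.34 with si NC against 3.26, 2.80 and 3.41 with PLOD3 siRNA, a log2 difference of -0.093 short of the threshold (edgeR adjusted p = 0.428). The difference turned to 0.39 after correction for GC and length (adjusted p = 0.00609).

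The KMT2 (MLL) genes were not called. KMT2B, which trimethylates H3K4 at a subset of promoters, had an FPKM of 3.37, 3.40 and 3.66 with si NC against 4.07, 3.80 and 4.71 with PLOD3 siRNA, with no overlap between the groups and a log2 difference of 0.27 that missed the threshold (edgeR adjusted p = 0.0592). With 63.5% GC it stood at 0.63 after the GC correction, where it passed (adjusted p = 0.00664). KMT2A, its closest relative, was at 2.89, 2.38 and 2.77 with si NC against 2.30, 1.82 and 2.66 with PLOD3 siRNA, with overlapping groups and a log2 difference of -0.25 (edgeR adjusted p = 0.185). KMT2C and KMT2D, which monomethylate H3K4 at enhancers, had log2 differences of 0.13 and 0.050 (edgeR adjusted p = 0.487 and 0.821), and KMT2E one of 0.11 (0.387). KMT2D passed as higher after correction for GC and length (log2 0.47, adjusted p = 0.0312). Levels of the 7 genes grouped here under H3K4 methylation ran from a mean of 1.72 FPKM for KMT2C to 9.40 for SETD1A.

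**Figure D2:**
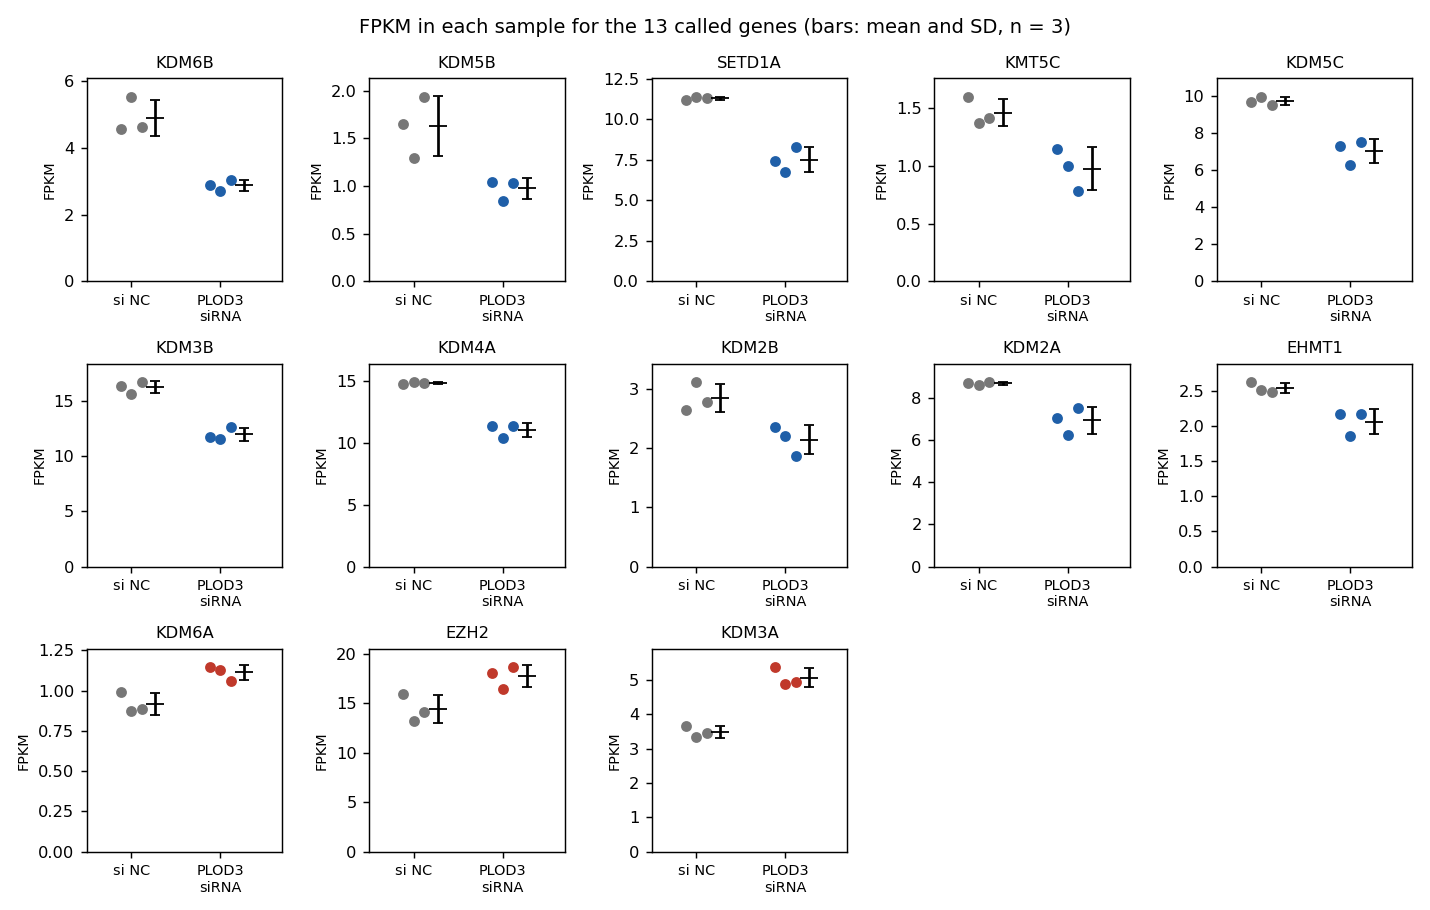
FPKM of the 13 called genes in each of the 3 si NC samples (grey) and the 3 PLOD3 siRNA samples (blue for genes called lower, red for genes called higher), each panel with its own axis from 0; the bars are the mean and SD. In all 13 panels the groups do not overlap, and the lowest point is a PLOD3 siRNA sample of KMT5C at 0.781.

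On H3K27 the writer EZH2 was called higher, the eraser KDM6B lower and its paralog KDM6A higher. EZH2, the catalytic subunit of Polycomb repressive complex 2 (PRC2) and abundant in dividing cells, had an FPKM of 15.9, 13.2 and 14.2 with si NC against 18.0, 16.5 and 18.6 with PLOD3 siRNA. Every PLOD3 siRNA sample was higher, and the mean rose from 14.4 ± 1.41 to 17.7 ± 1.12 (log2 0.30, SE 0.0783, n = 3 each, edgeR adjusted p = 0.0269). GC correction ended the call (log2 0.18, adjusted p = 0.0881) and it held in 2 of the 6 fits without a sample (adjusted p = 0.0249 to 0.0812). Fits lacking si NC replicate 2 or 3, or PLOD3 siRNA replicate 1 or 3, did not call it. EZH1, the PRC2 enzyme typical of resting cells, was at 4.44, 3.84 and 3.94 with si NC against 3.95, 3.68 and 4.16 with PLOD3 siRNA, with a log2 difference of -0.047 (edgeR adjusted p = 0.685) and a 95% interval of -0.24 to 0.15.

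KDM6B (ENSG00000132510, chromosome 17, 7839904 to 7854796, plus strand), an inducible H3K27 demethylase, had the largest fall of the 43 genes before any correction. After the GC correction KDM5B fell further. KDM6B was measured at 4.55, 5.52 and 4.62 with si NC against 2.88, 2.71 and 3.03 with PLOD3 siRNA. The groups were far apart relative to their spread, and the mean fell to 58.7% of the control (log2 -0.77, SE 0.110, n = 3 each, edgeR adjusted p = 0.00481). The call was kept after correction for GC (log2 -0.41, adjusted p = 0.0114) and for GC and length (log2 -0.26, adjusted p = 0.0484), at a smaller size. KDM6A (UTX), its X-linked paralog, was at 0.994, 0.874 and 0.885 with si NC against 1.15, 1.13 and 1.06 with PLOD3 siRNA and was called higher (log2 0.29, SE 0.0865, edgeR adjusted p = 0.0433). Its mean over all samples, 1.02 FPKM, passed the filter of 1 only through the PLOD3 siRNA samples, as the si NC mean was 0.918, and the call was lost with no FPKM filter. The call held in 1 of the 6 fits without a sample, the one without PLOD3 siRNA replicate 3 (adjusted p = 0.0470 to 0.125 over the 6), and ended with the GC correction (log2 0.12, adjusted p = 0.250). KDM7A, which acts on H3K9 and H3K27, was at 2.62 ± 0.392 and 2.37 ± 0.210 FPKM (n = 3 each, log2 -0.13, edgeR adjusted p = 0.407). It has the lowest GC content of all tested members, 38.5%, and passed as lower after the GC correction (log2 -0.41, adjusted p = 0.0152).

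H3K9 methyltransferases showed 1 call that did not hold. EHMT1 (GLP), which forms a dimer with EHMT2 (G9a), had an FPKM of 2.63, 2.52 and 2.48 with si NC against 2.17, 1.85 and 2.17 with PLOD3 siRNA. It was lower in each PLOD3 siRNA sample (log2 -0.29, SE 0.0706, n = 3 each, edgeR adjusted p = 0.0212). The difference fell to -0.062 after the GC correction (adjusted p = 0.530), and fits lacking si NC replicate 1 or 3 or PLOD3 siRNA replicate 1 did not call it. EHMT2, 4.54 times as abundant as EHMT1 in si NC, was at 11.3, 12.8 and 10.8 with si NC against 9.98, 9.57 and 10.9 with PLOD3 siRNA, with overlapping groups and a log2 difference of -0.19 (edgeR adjusted p = 0.145). That difference changed sign to 0.21 after correction for GC and length (adjusted p = 0.0356). SUV39H1, which trimethylates H3K9 in heterochromatin, was at 6.11, 3.66 and 5.48 with si NC against 5.10, 2.71 and 2.73 with PLOD3 siRNA. The samples spread widely within both groups, and the log2 difference of -0.53 did not pass (SE 0.295, edgeR adjusted p = 0.206), except without PLOD3 siRNA replicate 1 (adjusted p = 0.0459). SUV39H2 had a log2 difference of 0.027 (edgeR adjusted p = 0.917).

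For H3K36, neither the dimethylating NSD enzymes nor SETD2, which trimethylates H3K36, were called. Their log2 differences were 0.0030 for NSD1, -0.12 for NSD2, -0.17 for NSD3 and 0.094 for SETD2 (edgeR adjusted p = 0.985, 0.643, 0.494 and 0.590), and the groups overlapped in all 4. NSD2 had an FPKM of 7.51, 4.96 and 7.57 with si NC against 7.12, 6.07 and 5.07 with PLOD3 siRNA, with more spread within each group than between the group means. Both tested KDM2 demethylases were called lower. KDM2A, a CpG-island binding demethylase of H3K36, was at 8.72, 8.63 and 8.77 with si NC against 7.07, 6.27 and 7.54 with PLOD3 siRNA, and its mean fell to 79.9% of the control (log2 -0.32, SE 0.0713, n = 3 each, edgeR adjusted p = 0.0166). It kept the call after the GC correction (adjusted p = 0.0321), lost it after correction for GC and length (log2 -0.10, adjusted p = 0.141), and lost it without si NC replicate 3 or PLOD3 siRNA replicate 1. KDM2B, which recruits a variant Polycomb complex to CpG islands, was at 2.65, 3.12 and 2.78 with si NC against 2.35, 2.21 and 1.88 with PLOD3 siRNA (log2 -0.40, SE 0.126, n = 3 each, edgeR adjusted p = 0.0470). Its call was lost in each of the 6 fits without a sample (adjusted p = 0.0546 to 0.122) and after the GC correction (0.189), and its exons overlap those of RNF34 on the other strand by 439 bases. KDM8 had a mean of 0.551 FPKM and was not tested.

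On H4K20, KMT5C was called lower, while KMT5A and KMT5B did not pass. KMT5C, which with KMT5B di- and trimethylates H4K20, had an FPKM of 1.60, 1.37 and 1.41 with si NC against 1.15, 0.999 and 0.781 with PLOD3 siRNA (log2 -0.56, SE 0.169, n = 3 each, edgeR adjusted p = 0.0418). All PLOD3 siRNA samples were below all si NC samples, but the call held in 1 of 6 fits without a sample, the one without PLOD3 siRNA replicate 1 (adjusted p = 0.0499 to 0.107 over the 6), and with the highest GC content of the members, 66.1%, it ended with the GC correction (log2 -0.18, adjusted p = 0.507). The PLOD3 siRNA mean of KMT5C, 0.976 FPKM, was under the filter of 1, so it was tested only through its si NC level, and the call was lost with no FPKM filter. KMT5B was at 2.42 ± 0.483 and 2.56 ± 0.384 FPKM in the 2 groups (n = 3 each, log2 0.086, edgeR adjusted p = 0.708). KMT5A, which adds the first methyl group during the cell cycle, was at 8.99 ± 1.48 and 8.20 ± 0.542 (n = 3 each, log2 -0.13, edgeR adjusted p = 0.450), and the table lists pseudogenes of it that could share reads. The H3K79 methyltransferase DOT1L was at 4.05, 4.30 and 4.06 with si NC against 3.75, 3.30 and 4.0 with PLOD3 siRNA. Its groups did not overlap, yet the log2 difference of -0.17 did not pass (edgeR adjusted p = 0.154) and became 0.34 after correction for GC and length (adjusted p = 0.00482).

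The remaining SETD genes encode enzymes with mainly other substrates, such as the actin histidine methyltransferase SETD3, or with less settled ones, and 0 of 6 were called by edgeR. DESeq2, also on all 6 samples, called SETD7 and SETD4 higher and SETD5 lower, and these 3 were also the ones with an unadjusted edgeR p under 0.05. SETD5 had an FPKM of 9.52, 5.82 and 6.04 with si NC against 4.71, 4.66 and 5.23 with PLOD3 siRNA. Si NC replicate 1 stood apart from the other samples, the groups did not overlap, and the log2 difference was -0.54 (edgeR adjusted p = 0.0586, 0.0435 without that sample). SETD7, which monomethylates H3K4 in vitro and many other proteins, was at 8.12, 7.45 and 7.72 with si NC against 9.86, 8.06 and 9.34 with PLOD3 siRNA, with a log2 difference of 0.23 (edgeR adjusted p = 0.0535). SETD4 was at 1.08, 1.01 and 1.21 with si NC against 1.29, 1.45 and 1.49 with PLOD3 siRNA, higher in each PLOD3 siRNA sample, with a log2 difference of 0.36 short of the threshold (edgeR adjusted p = 0.0620). SETD3, SETD6 and SETD9 had log2 differences of 0.051, 0.27 and 0.21 (edgeR adjusted p = 0.642, 0.217 and 0.472). SETD6 overlaps CNOT1 on the other strand over 21.4% of its exon bases, and CNOT1 had a mean of 27.1 FPKM, so reads of the 2 may not have been told apart.

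Ratios of related enzymes within a sample do not depend on how the samples were scaled to each other. In 10 of 16 pairs the ratios of the 2 groups did not overlap, 5 higher and 5 lower in PLOD3 siRNA. Of all single genes tested, 27.5% were lower and 24.6% higher without overlap of FPKM. The share among other gene pairs was not computed, so the count is not a result about these pairs. The two-sided exact permutation test of 3 against 3 ratios gave p = 0.1 in each of the 10, the smallest it can give, or 0.16 adjusted over the 16 pairs, so none could pass 0.05. The log2 ratio of KDM3B to KDM3A was 2.16, 2.23 and 2.27 with si NC against 1.12, 1.25 and 1.35 with PLOD3 siRNA, or a level of KDM3B 4.66 times that of KDM3A in si NC and 2.36 times in PLOD3 siRNA. Thus KDM3B stayed the more abundant transcript in every sample, by a smaller margin. For KDM6B to KDM6A the log2 ratio was 2.18, 2.64 and 2.37 with si NC against 1.32, 1.25 and 1.50 with PLOD3 siRNA, the largest shift of the 16 (-1.04), and -0.53 remained between the GC-corrected fold changes. The ratio of KDM5B to KDM5A shifted by -0.91 (-0.88 GC-corrected) and that of KDM5C to KDM5A by -0.65 (-0.32 GC-corrected).

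Several of the shifts had little spread. The log2 ratio of EZH2 to EZH1 was 1.84, 1.77 and 1.84 with si NC against 2.19, 2.16 and 2.16 with PLOD3 siRNA, a shift of 0.35 (0.19 GC-corrected, and 0.061 corrected for GC and length). That of KDM4C to KDM4A was -3.03, -3.16 and -3.01 with si NC against -2.41, -2.40 and -2.42 with PLOD3 siRNA (0.56 GC-corrected), and that of SETD1B to SETD1A was -1.73, -1.73 and -1.76 with si NC against -1.18, -1.27 and -1.28 with PLOD3 siRNA. SETD1A and SETD1B have similar GC content (62.3% and 61.3%), and their shift was 0.50 before and 0.48 after the GC correction. The ratio of KMT2B to KMT2A shifted by 0.52 (0.93 GC-corrected) and that of KDM4B to KDM4A by 0.17 (0.45 GC-corrected). For KMT5C to KMT5B the shift was -0.68, and -0.031 remained after the GC correction. The groups overlapped for SUV39H2 to SUV39H1, EHMT2 to EHMT1, KMT2D to KMT2C, NSD2 to NSD1, KDM1B to KDM1A and KDM2B to KDM2A, with shifts of 0.57, 0.11, -0.083, -0.12, -0.14 and -0.083.

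**Figure D3:**
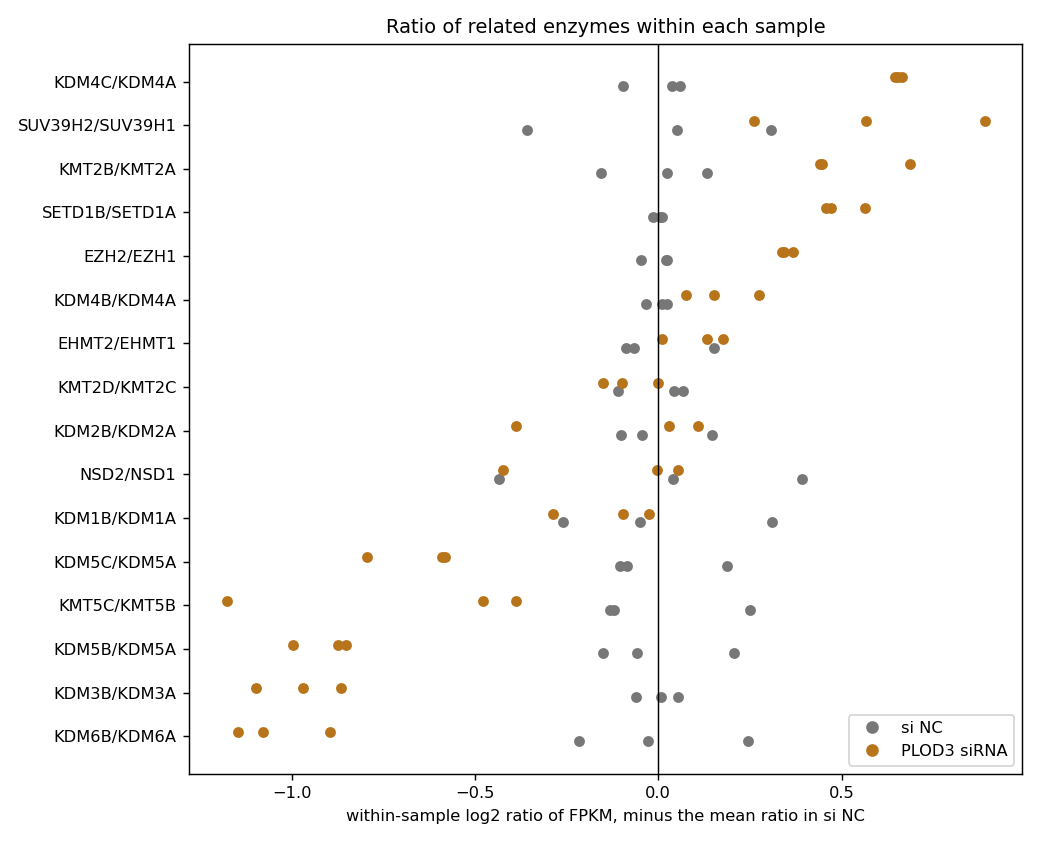
Within-sample log2 ratio of FPKM for 16 pairs of related enzymes, each minus its mean in si NC; grey points are the 3 si NC samples and orange points the 3 PLOD3 siRNA samples. The orange points of KDM6B/KDM6A and KDM3B/KDM3A lie about 1 log2 unit to the left of the grey ones, and those of KDM4C/KDM4A, SETD1B/SETD1A and EZH2/EZH1 form tight clusters to the right.

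GC content moved with the fold change. Across the 43 members Pearson's r between transcript GC content and log2 fold change was -0.45, and across 11968 tested genes it was -0.38. These are descriptions across genes, which share the same 6 libraries and are not independent replicates. The 10 lower members had a median GC content of 55.1%, the 3 higher members 44.8% and all 43 members 48.5%. KDM5B, at 44.4%, was the lower member with the lowest GC content, and KMT2B, at 63.5%, was higher in PLOD3 siRNA without a call. After the GC correction the median log2 fold change of the 43 genes was -0.062, of the demethylases -0.24 and of the methyltransferases -0.049. After correction for GC and length 6 members were lower and 9 higher, against 13.4% and 13.2% of all genes, and KDM6B, KDM5B, KDM5C, KDM3B, KDM4A and KDM3A were still called in their first direction. Of the 6 lower calls 5 were among the first 10, and KDM7A was the other. The 8 further genes called higher there were KMT2B, KMT2D, SETD1B, DOT1L, KDM4C, EHMT2, SETD4 and SETD7.

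**Figure D4:**
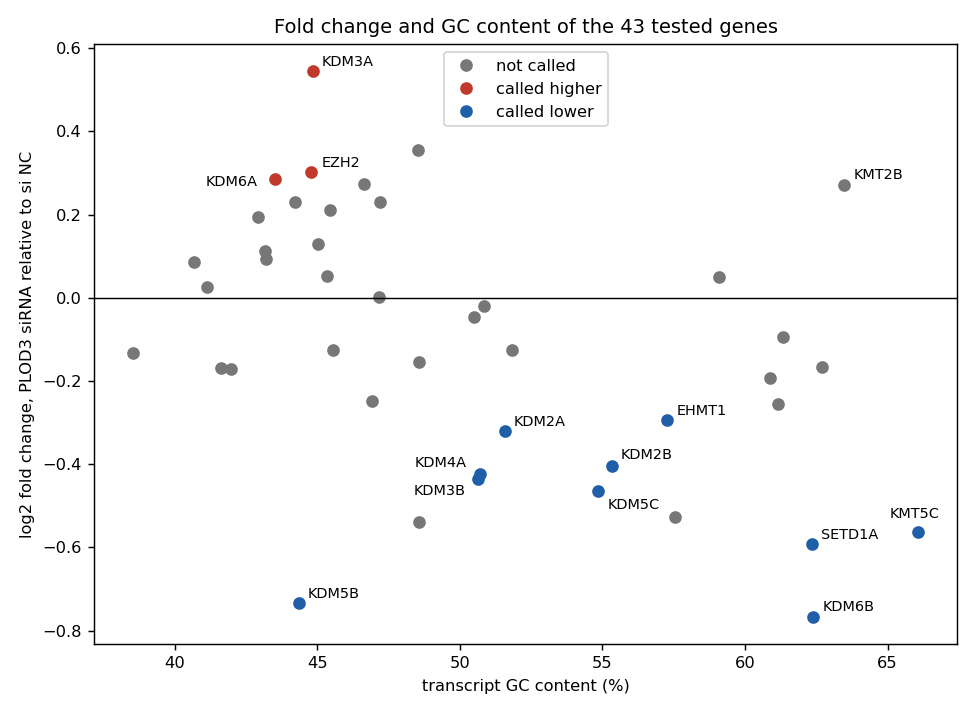
Log2 fold change of PLOD3 siRNA relative to si NC against the GC content of the transcript for the 43 tested genes, coloured by call. The called lower genes lie between 44.4% and 66.1% GC with 9 of the 10 above 50%, the 3 called higher between 43.5% and 44.8%, and KMT2B stands apart at the upper right.

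Partner proteins were read from lists chosen with earlier results of these data known, and they are described by counts only. Over all genes tested 16.2% were higher and 19.3% lower, and no list was tested against these shares. The counts are thus not a result about the lists. Of 11 PRC2 partners 1 was higher and 2 lower, with a median log2 fold change of 0.019. EED, the core subunit that reads trimethylated H3K27, rose from 2.27 ± 0.197 to 3.58 ± 0.211 in mean FPKM (SD, n = 3 each; log2 0.66, edgeR adjusted p = 0.00517) and kept its call after the GC correction (0.58, adjusted p = 0.00678). The accessory subunits EPOP and PHF1 had log2 fold changes of -0.70 and -0.42 (edgeR adjusted p = 0.00356 and 0.00831). After the GC correction EPOP was at -0.33 (adjusted p = 0.0254) and PHF1 had no call (0.249). SUZ12, another core subunit, had a difference of 0.19 (edgeR adjusted p = 0.211).

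Of 13 tested COMPASS subunits 1 was higher and 3 lower (median 0.0059). DPY30, a core subunit shared by all COMPASS complexes, fell from 13.3 ± 0.422 to 8.54 ± 0.472 in mean FPKM (SD, n = 3 each; log2 -0.63, edgeR adjusted p = 0.00461, -0.86 after the GC correction). NCOA6, a subunit of the KMT2C and KMT2D complexes, fell from 7.09 ± 0.158 to 4.26 ± 0.713 (n = 3 each, log2 -0.73, edgeR adjusted p = 0.00524, -0.76 after the GC correction). HCFC1 fell by 0.31 and PSIP1 rose by 0.27 (edgeR adjusted p = 0.0366 and 0.0343), each called in 1 of 6 fits without a sample and not after the GC correction. WDR5, RBBP5 and ASH2L, the other core subunits, had differences of -0.089, 0.13 and 0.081 (edgeR adjusted p = 0.310, 0.215 and 0.561).

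The LSD1-CoREST list had 2 of 14 genes higher and 4 lower (median -0.19). Not all of its genes encode CoREST subunits, and MTA1 does not. MTA1, RCOR2, ZMYM3 and HMG20B fell, with log2 fold changes of -0.63, -0.64, -0.55 and -0.58 (edgeR adjusted p = 0.00403, 0.00559, 0.00805 and 0.0129). After the GC correction MTA1 and ZMYM3 were still called, at -0.30 and -0.38. HDAC2 and ZMYM2 rose by 0.35 and 0.39 (edgeR adjusted p = 0.0190 and 0.0353), without a call after the GC correction. Of 12 H3K9 partners and readers, WIZ, a zinc finger partner of EHMT1 and EHMT2, fell by 0.47 and CBX3 (HP1 gamma) rose by 0.54 (edgeR adjusted p = 0.00542 and 0.00710). WIZ lost its call after the GC correction (adjusted p = 0.351), and CBX3 was at 0.27 (adjusted p = 0.0143). Of 6 tested DOT1L partners, MLLT1 fell by 0.45 (edgeR adjusted p = 0.0146, 0.395 after the GC correction).

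Of 13 other JmjC proteins 3 were higher and 4 lower (median -0.10). HR (hairless), which has a JmjC domain and acts as a nuclear receptor corepressor, fell from 8.56 ± 1.64 to 2.91 ± 0.181 in mean FPKM (SD, n = 3 each; log2 -1.55, edgeR adjusted p = 0.00239), a larger fall than that of any of the 43 members, and was at -1.17 after the GC correction (adjusted p = 0.00679). TYW5 rose by 0.63 (edgeR adjusted p = 0.00486), tested only through its PLOD3 siRNA mean of 1.33 FPKM, as the si NC mean was 0.864. After the GC correction TYW5 was at 0.36 (adjusted p = 0.0272). PHF2 and JMJD8 had log2 fold changes of -0.37 and -0.33 (edgeR adjusted p = 0.0231 and 0.0277), both without a call after the GC correction. Among 11 tested SET or PRDM enzymes outside the rule, SMYD3 fell from 3.99 ± 0.334 to 2.39 ± 0.163 in mean FPKM (SD, n = 3 each; log2 -0.73, edgeR adjusted p = 0.00474, -0.72 after the GC correction) and SMYD4 fell by 0.30 (edgeR adjusted p = 0.0356). GC correction ended the SMYD4 call (adjusted p = 0.0547), as did each of the 6 fits without a sample (0.0554 to 0.104).

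Of 12 tested genes that supply S-adenosylmethionine and 2-oxoglutarate, 1 was higher and 3 lower (median 0.066). IDH2, a mitochondrial source of 2-oxoglutarate, fell by 0.53, and OGDH, which consumes it, had a log2 fold change of -0.55 (edgeR adjusted p = 0.00689 and 0.00460). Both were also called after the GC correction, each at -0.34. MAT2A, which makes S-adenosylmethionine, rose by 0.24 (edgeR adjusted p = 0.0421) and was not called after the GC correction. Of 9 genes on the arginine methyltransferase list, which includes the PRMT5 partner WDR77, 4 were higher and 1 lower (median 0.20). Over all genes 16.2% were higher and 19.3% lower. PRMT5 rose from 43.9 ± 1.35 to 59.3 ± 2.69 in mean FPKM (SD, n = 3 each; log2 0.44, edgeR adjusted p = 0.00593) and its partner WDR77 by 0.28 (edgeR adjusted p = 0.0295), both also after the GC correction. PRMT9 and PRMT3 rose by 0.48 and 0.45 and CARM1 fell by 0.49 (edgeR adjusted p = 0.0200, 0.0276 and 0.0257), without a call after the GC correction. Some partner genes named with a call also lost it in at least 1 of the 6 fits without a sample. These were HDAC2, ZMYM2, MLLT1, JMJD1C, JMJD8, PHF2, MAT2A, PRMT3, PRMT9, CARM1 and WDR77.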

How the data were processed

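The authors deposited 1 table of 60612 genes with an FPKM and an estimated count for each of the 6 samples, and 0 of its 12 value columns were left unmapped. FPKM were deposited per the file headers, with 0.0001 for a gene without reads. Estimated counts, also deposited, are whole numbers without normalization. The tools cutadapt 1.9, HISAT2 2.0.4 and StringTie 1.3.4d are listed in the submitters' processing notes. Strand setting, annotation and genome build were not given in the sources used here, so reads from overlapping genes on opposite strands cannot be told apart. Of the genes, 58394 were found by identifier in GENCODE release 29 (GRCh38), 99.9% of those at an overlapping position, and all 46 members were among them, so coordinates were read as GRCh38. Low counts piled up at multiples of 4 (on average 1490 genes at a count of 4 and 558 at 3), so a unit of count need not be 1 read; counts divided by 4 were an alternative.

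The 12000 genes whose mean FPKM reached 1 were tested. Counts were scaled by TMM and compared with edgeR 4.0.16 in R 4.3.3 (quasi-likelihood test, no covariate), and limma 3.58.1 and DESeq2 1.42.0 served as alternatives. To correct for GC content, a loess fit (span 0.5) of each sample's deviation from the gene mean on transcript GC content was given to edgeR as an offset, and for GC and length a further trend on length was added. GC content was known for 11968 tested genes. Ratios within a sample used FPKM + 0.01. Promoter sequences came from RefSeq (GRCh38.p14), where 42 of 46 members have an entry. The edgeR script was tested on simulated data.

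The members, the partner lists and the pairs were chosen with earlier results of these data known. The rule for named genes took PLOD3, every called member with its FPKM by sample, uncalled members by level and, in the family of a called member, fold change, both genes of each pair, and of each partner list up to 4 called genes with the smallest p, or all where 5 or fewer were called. Further values of uncalled members, WDR5, RBBP5, ASH2L and SUZ12 were added after the values were seen, as were the called JMJD1C, HDAC2 and ZMYM2. A called gene of 1 partner list is not reported here.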

Additional observations from a re-analysis of the deposited data

How the results depend on the processing

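The calls of KDM6B, KDM3A, KDM3B and KDM4A were kept under each alternative in which they were tested (18 for KDM6B and KDM3A, which the filter at 5 FPKM leaves out, and 19 for KDM3B and KDM4A). The within-sample ratios kept their direction with FPKM + 0.1. KDM5B lost its call with TPM, KDM5C with the replicate block and GC correction together, and SETD1A with that fit and after correction for GC and length. The count of higher members was 3, and it was 6 with DESeq2, 1 with a filter at 5 FPKM, 1 with limma on log2(FPKM + 1), 1 with limma on log2(FPKM + 0.1) and 9 after correction for GC and length. The count of lower members was 10, and it was 6 with that filter (17 members tested), 5 with limma on TPM and 6 after correction for GC and length. Leaving out each sample in turn gave 1 to 3 higher and 6 to 9 lower members. Over all genes DESeq2 called 2355 higher and 2557 lower, against 1945 and 2319 in the main fit. Limma on TPM called 2470 higher and 1461 lower. Counts over all genes under the filter at 5 FPKM, limma on FPKM, the replicate block and the fits without a sample are not given here. The member counts under those settings are thus not a result about the members.

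The correlation of deviations between same-numbered samples was 0.049, -0.011 and -0.023, and 2 of 6 samples correlated best with their own number. With 3 samples per group these values cannot tell whether the replicate numbers pair the samples. With the replicate block 1 member was higher and 7 lower, and with the replicate block and GC correction 2 were higher and 5 lower. PLOD3 stayed lower under all alternatives.

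After correction for GC and length the sign turned for DOT1L (0.34), SETD1B (0.39), EHMT1 (0.055), EHMT2 (0.21), HCFC1 (0.18), MLLT1 (0.014) and WIZ (0.0495), and after the GC correction for HCFC1 (0.021, 0.018 with the replicate block) and JMJD8 (0.028, 0.026 with the replicate block). Uncalled members turned too, among them SETD1B (0.24), DOT1L (0.19), EHMT2 (0.13) and KDM4B (0.069) after the GC correction. The cause was not tested. What depth limits was not compared between members.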
